A study of Mus musculus with 10 samples.

Results

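The complement and coagulation genes of the liver were described as a group of 41 genes, taken from a list of proteins that hepatocytes secrete into plasma and matched to the deposited count table by gene symbol. All 41 were found among the 55385 genes of the table, and all 41 were among the 14200 genes with enough counts to be tested. The list was divided by role, not by measured values, into 21 complement genes (5 of the classical pathway, 4 of the lectin pathway, 3 for C3 and the alternative pathway, 6 terminal components and 3 regulators) and 20 coagulation genes (10 procoagulant factors, 3 fibrinogen chains, 4 anticoagulants and 3 genes of fibrinolysis).

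The libraries came from mouse liver cells that the labels call hepatocytes, of mixed C57BL/6J and 129SV background. Their titles begin with HCC, the short form of hepatocellular carcinoma, and the part of tumour cells in them was not tested. In the group labelled EP300 KO (genotype EP300-/-), mice with floxed EP300 alleles, which encode a histone acetyltransferase and transcriptional coactivator, received AAV-TBG-Cre by tail vein. The group labelled EP300 WT consisted of EP300f/f mice that received AAV-TBG-GFP. The TBG promoter directs expression to hepatocytes, so other liver cells of the KO-labelled mice were not the target of Cre. Both groups also shared a liver tumour model: all mice had the DDC diet, which injures bile ducts, and hydrodynamic injection of the pT3-cMet plasmid, with a duration of 5 months in the labels. Neither age nor sex is given in the labels used here. Livers were perfused and the cells sorted by flow cytometry before RNA extraction. Each group had 2 libraries, and the labels tie no library to an animal, so the p-values cover only library-to-library spread, part of which may be technical. The other 6 of the 10 libraries, from a diet experiment, were not used here.

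Complement is a cascade of plasma proteases and adaptors. The classical and lectin pathways start from bound antibody or from microbial sugars, the alternative pathway amplifies through C3, and all converge on C5, which with C6, C7, C8 and C9 forms the pore-shaped membrane attack complex. Coagulation is a parallel protease cascade that ends in thrombin and fibrin, held back by circulating inhibitors and undone by plasmin. Hepatocytes make most of both systems, and several of the clotting factors need vitamin K-dependent carboxylation before they are secreted.

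The libraries held between 17709799 and 18831671 counts. Ep300 itself was at 62.3 and 57.9 CPM (counts scaled to library size and TMM factor) in the WT-labelled libraries and at 73.7 and 72.3 CPM in the KO-labelled ones, a log2 fold change of 0.28 (SE 0.07, adjusted p = 0.00498, edgeR quasi-likelihood test with Benjamini-Hochberg adjustment, as for every adjusted p given here). The targeted gene was thus more abundant under the KO label. A count over the whole gene cannot show the loss of a floxed exon, so it does not check the labels, and each direction below refers to the labels as deposited. Xist, the RNA that coats the inactive X chromosome, had 2310 and 1411 counts in the KO-labelled libraries against 3 and 2 in the WT-labelled ones, while the Y-linked genes Ddx3y, Kdm5d, Eif2s3y and Uty were counted in all 4 libraries and none of them passed the test. A list of genes known to be higher in male mouse liver summed to 8604 and 7367 CPM in the KO-labelled libraries and to 706 and 688 CPM in the WT-labelled libraries, and all 12 tested members rose. Of 13 tested genes known to be higher in female liver, 10 fell and 3 rose. The part of these differences in the results below was not tested.

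Hepatocyte markers summed to between 129908 and 156679 CPM in the 4 libraries, and this sum was lower in the KO-labelled libraries. Of the 12 tested, 5 rose (Fabp1, Tat, Cps1, Ttr and Hpd) and 4 fell (Alb, Trf, Apoa1 and Ahsg), with a median log2 fold change of 0.13. Alb held most of the sum, at a mean of 72611 CPM in the KO-labelled and 78219 CPM in the WT-labelled libraries. Sums for other cell types were far smaller. Macrophage markers ranged from 660.0 to 756 CPM, endothelial markers from 212 to 282 CPM, stellate cell markers from 164 to 271 CPM and bile duct markers from 120 to 159 CPM, each range with its lower end in the KO-labelled group. The single markers, named here once their values were known, were not uniform. Of the 8 macrophage markers, 3 rose (Marco by 2.59, Timd4 by 0.64 and Cd68 by 0.43 on the log2 scale) and 2 fell (Cd5l by 0.69 and Lyz2 by 0.23), with a median log2 fold change of 0.0036. None of the endothelial, stellate cell or bile duct markers rose, while 4 of 7, 4 of 7 and 2 of the 5 tested fell. Neutrophil markers stayed between 3.91 and 9.46 CPM, platelet markers between 5.35 and 7.69 CPM with Gp1bb at 0, and lymphocyte markers at or under 0.676 CPM. In such bulk RNA, fewer cells of a type and less RNA per cell cannot be told apart.

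Of the 41 genes, 21 were higher and 9 lower in the KO-labelled libraries at an adjusted p below 0.05, and 11 did not pass, so 73.2% were called. The background was wide: 34.2% of all tested genes were called, 16.7% higher and 17.5% lower. Among genes with a mean of at least 20 CPM, the range in which all 41 genes lie, 48.2% were called, 27.3% higher and 20.9% lower. The median log2 fold change was 0.21 over the 41 genes and -0.0052 over all tested genes. A change of at least 2-fold that passed the test was found in 5 of the 41 genes, all of them upward (C8b, C9, C8a, C6 and Mbl2), beside 3.15% of all tested genes higher and 5.01% lower by that rule, and 2.27% and 2.04% of genes at 20 CPM or more. The 2 groups did not overlap in 37 of the 41 genes, beside 66.4% of all tested genes. The 4 that overlapped were Cfb, Cfp, Serpind1 and Cpb2.

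**Figure D1:**
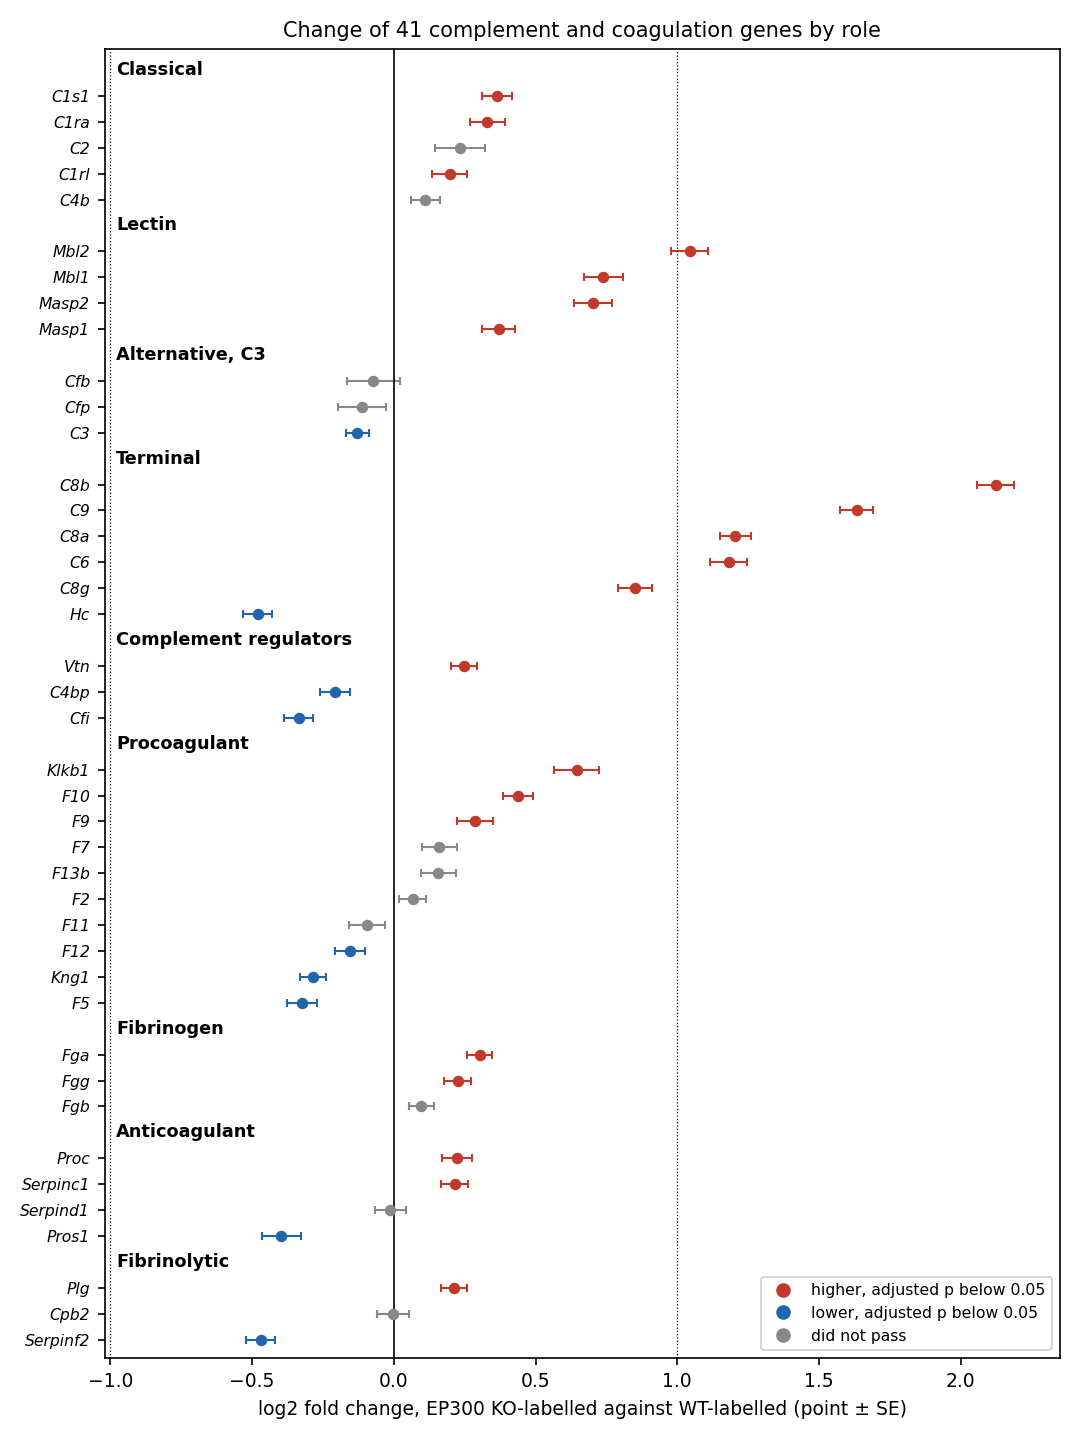
Log2 fold change (horizontal axis, positive when higher in the KO-labelled libraries) with its standard error for each of the 41 genes, grouped by role, over 2 libraries per group. Red and blue points passed an adjusted p of 0.05 and grey ones did not, and the dotted lines mark 2-fold changes. The points beyond 2-fold are C8b, C9, C8a and C6 of the terminal group and Mbl2 of the lectin group.

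The terminal components held the widest differences. Of the 6 genes, 5 rose and 1 fell, with a median log2 fold change of 1.19. C8b, the beta chain of C8, which joins the C8 complex to the forming pore, was at 75.6 and 71.0 CPM in the WT-labelled libraries and at 332 and 307 CPM in the KO-labelled libraries. Both KO-labelled values stood more than 4-fold above both WT-labelled ones, and the log2 fold change was 2.12 (SE 0.07, adjusted p = 7.89e-13). C9, the subunit that polymerises into the pore, rose from 166 and 169 CPM to 533 and 507 CPM, a log2 fold change of 1.63 (SE 0.06, adjusted p = 3.64e-12). C8a, the alpha chain that inserts into the membrane, rose from 237 and 243 CPM to 564 and 542 CPM (log2 fold change 1.21, SE 0.06, adjusted p = 1.14e-10). C6, which binds C5b first, rose from 60.03 and 62.72 CPM to 143 and 135 CPM (log2 fold change 1.18, SE 0.07, adjusted p = 9.57e-10). In each of these 4 genes the groups were far apart compared with the gap between replicates. C8g, the small gamma chain of the lipocalin family, rose less, by 0.85 (SE 0.06).

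Hc, the mouse gene for C5, from which the terminal pathway starts, went the other way. It was at 909 and 911 CPM in the WT-labelled libraries and at 653 and 651 CPM in the KO-labelled ones, so that the groups did not overlap and replicates differed by about 2 CPM. Its log2 fold change was -0.48 (SE 0.05, adjusted p = 1.90e-06). C7, the remaining protein of the complex, was close to absent, at no more than 0.935 CPM in any library, and was not tested. In each other setting tried on all 4 libraries, the same number of terminal genes, 5, was called higher, a count that leaves out Hc. With each library left out in turn, the median log2 fold change of the terminal genes lay between 1.17 and 1.23. Such a fit leaves 1 library in 1 of the groups, so only the size of the change is given.

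Values per kilobase of exon allow a rough comparison of the terminal genes with each other. The lengths join all annotated exons of a gene, and the transcript in use was not determined. The order of genes and the size of their ratios depend on these lengths, but the change of a ratio between libraries does not. In the WT-labelled libraries Hc was the most abundant, at a mean of 145 CPM per kb, above C8g at 68.7, C8a at 66.0, C9 at 65.5, C8b at 28.8 and C6 at 17.3. In the KO-labelled libraries C9 came first at 203 CPM per kb, followed by C8a at 152, then C8b at 125.5 and C8g at 124, with Hc at 104 and C6 at 39.2. The ratio of Hc to C9 per kb was 2.23 and 2.20 in the WT-labelled libraries and 0.500 and 0.524 in the KO-labelled ones. The 3 chains of C8 assemble into 1 protein. On these lengths, C8a exceeded C8b by ratios of 2.20 and 2.39 per kb in the WT-labelled libraries. The ratios of C8a to C8b were lower in the KO-labelled libraries, at 1.19 and 1.24. C8g to C8b moved from 2.29 and 2.48 to 0.955 and 1.021. With 2 libraries against 2, an exact permutation test on such a ratio cannot go below p = 0.333, and none is given.

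**Figure D2:**
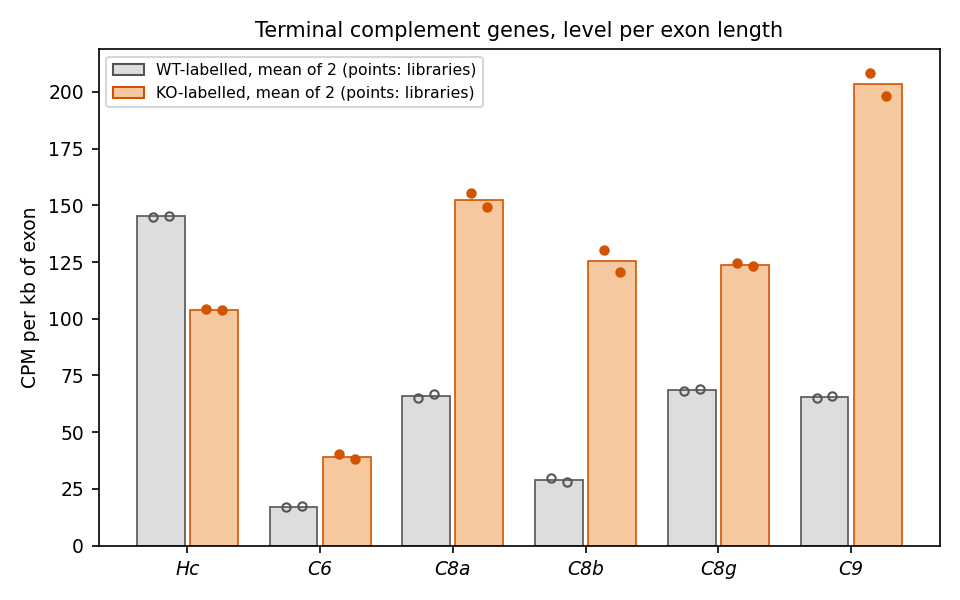
Level of each terminal complement gene in CPM per kilobase of exon (vertical axis, linear scale). Bars give the mean of 2 libraries and points each library, open points WT-labelled and filled points KO-labelled. Hc is highest in the WT-labelled libraries, at a mean of 145, and lies below C9, C8a, C8b and C8g in the KO-labelled libraries, at a mean of 104.

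C8b (chr4:104766317-104804548) and C8a (chr4:104815679-104876398, GRCm38) are neighbours, C6 (chr15:4727175-4814967) and C9 (chr15:6445327-6498751) lie on one chromosome, and Hc (chr2:34983331-35061438) lies apart from them. The sequence just upstream of these genes and of Mbl2, which together are the 5 genes past 2-fold and the terminal gene that fell, is given here so that genes that moved together and apart can be compared. Each run has 200 bases, 5′ to 3′ on the strand of the gene, ends before the more upstream of the annotated starts, and comes from the RefSeq promoter table (GRCm38.p6). Capitals mark matches to 1 of 6 short motifs of liver transcription factors.
C8b, chr4:104766117-104766316, plus strand: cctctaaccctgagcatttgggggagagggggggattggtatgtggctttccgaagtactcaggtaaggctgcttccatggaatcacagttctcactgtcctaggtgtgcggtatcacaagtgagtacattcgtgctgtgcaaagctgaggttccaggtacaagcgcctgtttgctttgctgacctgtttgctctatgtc
C8a, chr4:104876399-104876598, minus strand: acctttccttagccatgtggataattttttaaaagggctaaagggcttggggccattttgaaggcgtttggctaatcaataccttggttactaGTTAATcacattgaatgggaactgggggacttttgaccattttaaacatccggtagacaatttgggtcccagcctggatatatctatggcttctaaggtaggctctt
C9, chr15:6445127-6445326, plus strand: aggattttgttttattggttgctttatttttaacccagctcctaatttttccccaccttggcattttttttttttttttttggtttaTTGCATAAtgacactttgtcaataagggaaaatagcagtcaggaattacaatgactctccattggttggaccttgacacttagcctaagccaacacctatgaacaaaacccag
C6, chr15:4726975-4727174, plus strand: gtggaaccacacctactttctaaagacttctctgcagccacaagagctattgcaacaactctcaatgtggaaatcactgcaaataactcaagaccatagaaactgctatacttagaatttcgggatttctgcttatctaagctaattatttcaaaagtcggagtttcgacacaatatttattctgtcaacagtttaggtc
Hc, chr2:35061439-35061638, minus strand: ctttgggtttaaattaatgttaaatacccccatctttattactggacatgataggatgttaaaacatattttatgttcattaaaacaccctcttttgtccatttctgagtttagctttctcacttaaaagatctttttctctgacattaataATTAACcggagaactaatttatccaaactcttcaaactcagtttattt
Mbl2, chr19:30232728-30232927, plus strand: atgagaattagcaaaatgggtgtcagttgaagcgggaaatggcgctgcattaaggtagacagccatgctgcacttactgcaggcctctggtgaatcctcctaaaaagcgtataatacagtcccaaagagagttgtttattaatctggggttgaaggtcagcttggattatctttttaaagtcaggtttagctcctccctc

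The C8a stretch held the HNF1 motif GTTAAT and the Hc stretch its reverse complement ATTAAC. The C9 stretch held a C/EBP match, TTGCATAA. The printed stretches of C8b, C6 and Mbl2 held none of the 6 motifs, although the wider window of C8b held a GTTAAT match further upstream. Within the printed stretches, the gene that fell shared a match with a gene that rose, and the genes that rose shared none. In the wider windows of 250 bases, C8a and C8b, which both rose, each held an HNF1 match, as did Hc. A link between matches and direction was not tested. Windows of 250 bases before the start were searched for 33 of the 41 genes. GTTAAT on either strand was found in 10 of the 33 (30.3%), beside 6.43% of all 32851 windows. The C/EBP pattern TTGCNNAA was found in 9 (27.3%, beside 9.56%), the STAT pattern TTCNNNGAA in 6 (18.2%, beside 7.02%), the FOXA pattern TGTTTAC in 2 (6.06%, beside 3.17%) and the PAR bZIP pattern TTANGTAA in 1 (3.03%, beside 2.06%). The HNF4 core CAAAGTCC was found in 0 of the 33, beside 1.196%. The search covered both strands, the C/EBP and PAR bZIP patterns can overlap, and a match describes letters, not binding. C2, C4b, Cfb, Cfi, Kng1, Masp1 and Plg were not in the table. Proc was not searched, because chromosome 18 was left out for the 41 genes, though not for the 32851 windows.

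All 4 listed genes of the lectin pathway rose, with a median log2 fold change of 0.72. Other lectin pathway genes, outside the list, did not pass. They were Fcna (log2 fold change 0.07, adjusted p = 0.630), Colec10 (-0.05, 0.795) and Colec11 (-0.09, 0.586). Mbl2, which encodes mannose-binding lectin C, was at 151 and 153 CPM in the WT-labelled libraries and at 329.9 and 296 CPM in the KO-labelled libraries. Both KO-labelled libraries lay far above both WT-labelled ones, with a log2 fold change of 1.04 (SE 0.06, adjusted p = 2.92e-09). Mbl1, the gene of mannose-binding lectin A, rose by 0.74 (SE 0.07). Per kb, Mbl2 exceeded Mbl1 by ratios of 4.62 and 4.48 in the WT-labelled and 5.82 and 5.41 in the KO-labelled libraries. The proteases that these lectins carry also rose, Masp2 by 0.70 (SE 0.07) and Masp1 by 0.37 (SE 0.06). Masp2 shares 54.9% of its exon bases with Tardbp on the chromosome, so its reads cannot be told apart from those of Tardbp if strand was not used in counting. Against a threshold of 1.2-fold, 3 of the 4 lectin genes passed, and Masp1 did not (adjusted p = 0.0669).

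In the classical pathway, 3 of 5 genes rose and none fell, with a median log2 fold change of 0.23. C1s1, the protease that cleaves C4 and C2, was at 379 and 386 CPM in the WT-labelled libraries and at 487 and 497 CPM in the KO-labelled libraries, with no overlap and a log2 fold change of 0.36 (SE 0.05, adjusted p = 6.42e-05). C1ra, the protease that activates it, rose by 0.33 (SE 0.06), and the related C1rl by 0.20 (SE 0.06). The ratio of C1s1 to C1ra per kb stayed between 1.42 and 1.56 in the 4 libraries. C4b, the main gene of C4 at 1667 to 1901 CPM, had a log2 fold change of 0.11 (SE 0.05, adjusted p = 0.110), and C2 one of 0.23 (SE 0.09, adjusted p = 0.0510). C4a, the close copy of C4b that encodes the sex-limited protein, named for its higher level in males of some strains, was at 6.95 and 7.90 CPM in the WT-labelled and 50.9 and 41.4 CPM in the KO-labelled libraries (log2 fold change 2.63, SE 0.12). Reads of C4a and C4b, and of C1ra and C1s1 with their copies C1rb and C1s2, may be divided uncertainly, and 46.9% of the exon bases of C2 and 18.4% of those of C1s1 overlap other genes. C1rl lost its call without WT replicate 1 (adjusted p = 0.112) or 2 (0.221), and C1ra without WT replicate 2 (0.0702), while C4b and C2 passed without KO replicate 1.

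C3 and the alternative pathway did not follow. C3, on which all pathways converge, was the most abundant of the 41 genes and ranked 6 of 14200 by mean level. It was at 14747 and 14486 CPM in the WT-labelled libraries and at 13095 and 13638 CPM in the KO-labelled libraries, lower in both but by a log2 fold change of only -0.13 (SE 0.04, adjusted p = 0.0220). That call ended with DESeq2 (adjusted p = 0.0882) and without WT replicate 1 (0.340) or 2 (0.284). Cfb, factor B of the alternative C3 convertase, had a log2 difference of -0.07 (adjusted p = 0.597), and Cfp, properdin, which stabilises that convertase and is made mainly by myeloid cells, one of -0.11 (adjusted p = 0.332). Cfb is uncertain because 79.5% of its exon bases are shared with an overlapping gene model.

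Among the complement regulators 2 fell and 1 rose. Cfi, the protease that inactivates C3b and C4b, was at 919.7 and 954 CPM in the WT-labelled and at 729 and 755 CPM in the KO-labelled libraries, apart in both replicates, with a log2 fold change of -0.34 (SE 0.05, adjusted p = 0.000102). C4bp, a cofactor of Cfi for C4b, fell by 0.21 (SE 0.05). Vtn, vitronectin, which keeps the forming pore out of membranes, was at 2270.1 and 2311 CPM in the WT-labelled libraries and at 2683 and 2759 CPM in the KO-labelled libraries (log2 fold change 0.25, SE 0.05, adjusted p = 0.000578). Without WT replicate 1 or 2 the adjusted p was 0.0640 or 0.0530 for Vtn and 0.0920 or 0.183 for C4bp, which ended both calls.

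**Figure D3:**
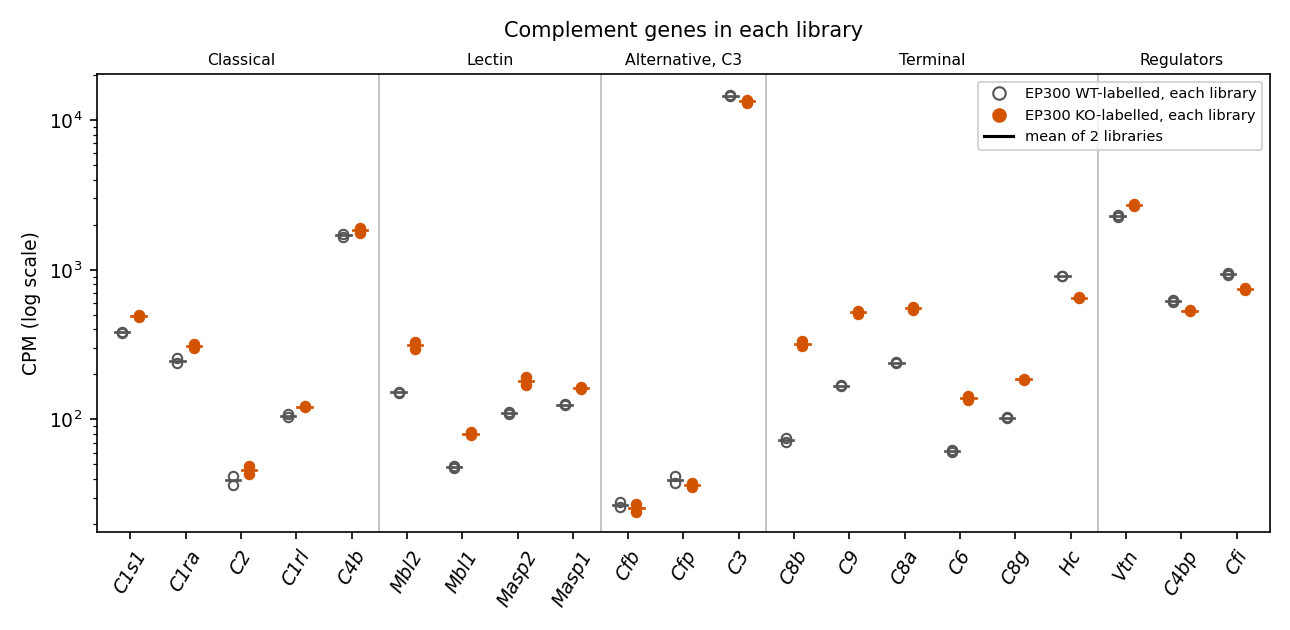
Level in CPM (vertical axis, log scale) of the 21 complement genes in every library, open points WT-labelled, filled points KO-labelled, bars the mean of 2 libraries. The terminal and lectin genes separate by more than their replicates do, with C8b moving from 75.6 and 71.0 to 332 and 307 CPM, while C3 stays between 13095 and 14747 CPM.

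The procoagulant factors were mixed. Of 10 genes, 3 rose, 3 fell and 4 did not pass, with a median log2 fold change of 0.11. Klkb1, prekallikrein of the contact system, was at 74.3 and 81.0 CPM in the WT-labelled libraries and at 132 and 111 CPM in the KO-labelled libraries, with no overlap but a wider gap between the KO-labelled replicates (log2 fold change 0.65, SE 0.08, adjusted p = 1.03e-05). It shares 43.2% of its exon bases with an overlapping gene model. F10, the factor that converts prothrombin to thrombin, rose by 0.44 (SE 0.05), and F9, its activator in the intrinsic pathway, by 0.29 (SE 0.06). F5, the cofactor of activated factor X, fell from 695 and 672 CPM to 559 and 534 CPM (log2 fold change -0.32, SE 0.05, adjusted p = 0.000202), so the enzyme and its cofactor moved in opposite directions and their ratio of F5 to F10 per kb went from 0.680 and 0.667 to 0.407 and 0.387. Kng1, kininogen, which carries prekallikrein in plasma, fell by 0.29 (SE 0.05) and F12, which starts the contact pathway, by 0.16 (SE 0.05). F2, prothrombin, at 2490.0 to 2676 CPM, had a log2 difference of 0.07 (adjusted p = 0.302), F7 one of 0.16 (0.0610), F13b one of 0.16 (0.0613) and F11 one of -0.09 (0.288). F9 lost its call without WT replicate 2 (adjusted p = 0.1001) and F12 without WT replicate 1 (0.274) or 2 (0.233); F2 and F7 passed without KO replicate 1, and F13b without KO replicate 2.

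Of the 3 fibrinogen chains, which are encoded side by side on chromosome 3 and assembled in equal numbers, 2 rose. Fga was at 3323 and 3391 CPM in the WT-labelled libraries and at 4104 and 4176 CPM in the KO-labelled libraries, a small shift seen in both replicates (log2 fold change 0.30, SE 0.04, adjusted p = 6.65e-05). Fgg rose by 0.23 (SE 0.05), and Fgb had a log2 fold change of 0.10 (SE 0.04, adjusted p = 0.111). Per kb of all annotated exons, the chains were close to each other. Means for Fga, Fgb and Fgg were 1115, 974 and 1031 in the WT-labelled and 1375, 1042 and 1206 in the KO-labelled libraries. Without WT replicate 1 or 2 the adjusted p of Fgg was 0.0976 or 0.0647, and Fgb passed with either KO replicate left out.

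Of the 4 anticoagulant genes, 2 rose and 1 fell. Proc, protein C, which as an activated protease cuts factors V and VIII, was at 482 and 478 CPM in the WT-labelled and at 546 and 575 CPM in the KO-labelled libraries (log2 fold change 0.22, SE 0.05, adjusted p = 0.00432). Pros1, its cofactor protein S, was at 139.6 and 144 CPM in the WT-labelled and at 115 and 101 CPM in the KO-labelled libraries (log2 fold change -0.40, SE 0.07, adjusted p = 0.000283). Protease and cofactor thus moved in opposite directions, as F10 and F5 did. Serpinc1, antithrombin, rose by 0.21 (SE 0.05), and Serpind1, heparin cofactor II, had a log2 difference of -0.01 (adjusted p = 0.881). Serpinc1 shares 34.4% of its exon bases with Zbtb37. The calls of Proc and Serpinc1 ended without WT replicate 1 (adjusted p = 0.0938 and 0.116) or 2 (0.112 and 0.0695), and that of Pros1 without WT replicate 2 (0.0530).

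In fibrinolysis, Plg, plasminogen, was at 2224 and 2172 CPM in the WT-labelled and at 2558 and 2539 CPM in the KO-labelled libraries, higher in both (log2 fold change 0.21, SE 0.05, adjusted p = 0.00199). Serpinf2, the main inhibitor of plasmin, was at 1482 and 1453 CPM in the WT-labelled and at 1025 and 1093 CPM in the KO-labelled libraries (log2 fold change -0.47, SE 0.05, adjusted p = 3.00e-06). The ratio of Plg to Serpinf2 per kb was 0.940 and 0.936 in the WT-labelled libraries and 1.56 and 1.45 in the KO-labelled ones. Plg shares 11.3% of its exon bases with Slc22a3. Cpb2, the carboxypeptidase that slows fibrin breakdown, had a log2 difference of -0.0037 (adjusted p = 0.970). Plg lost its call without WT replicate 1 (adjusted p = 0.0669) or 2 (0.111).

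**Figure D4:**
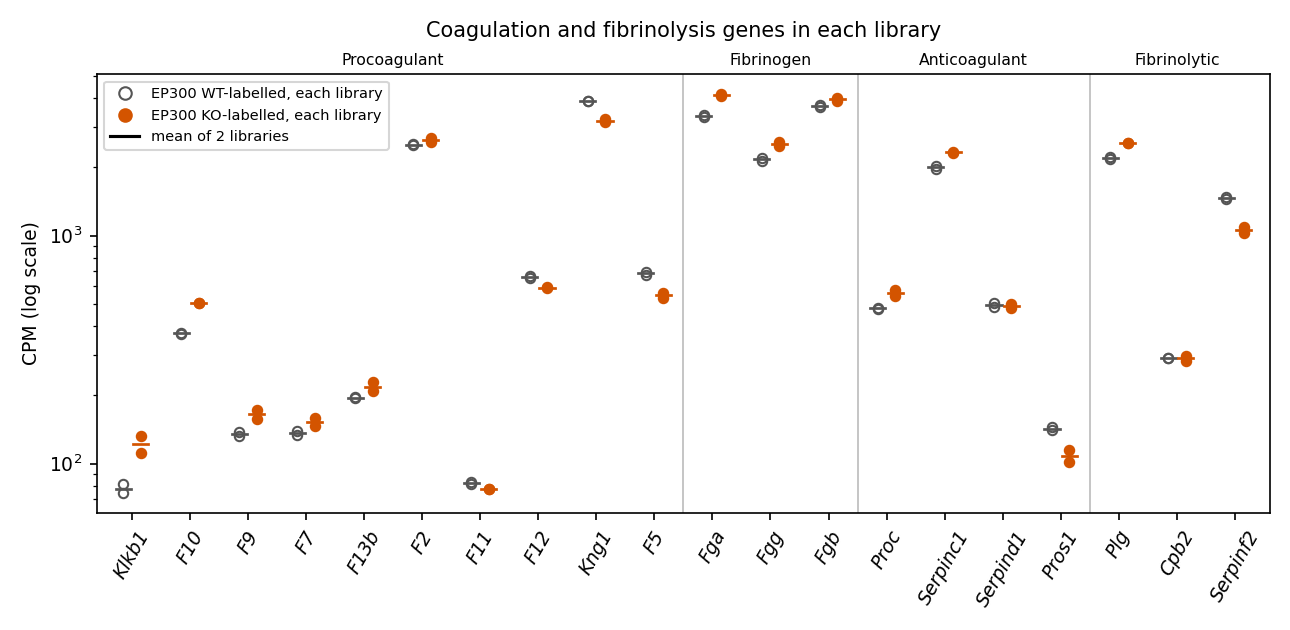
Level in CPM (vertical axis, log scale) of the 20 coagulation and fibrinolysis genes in every library, open points WT-labelled, filled points KO-labelled, bars the mean of 2 libraries. Shifts are small and in both directions, from Klkb1 and F10 upward to Serpinf2 and Pros1 downward.

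Set side by side, 13 of 21 complement genes rose and 4 fell, with a median log2 fold change of 0.33, and 8 of 20 coagulation genes rose and 5 fell, with a median of 0.13. Without the terminal genes, 8 of 15 complement genes rose and 3 fell, with a median of 0.23. The 13 procoagulant genes, fibrinogen included, had 5 that rose and 3 that fell (median 0.16). The 7 genes of anticoagulation and fibrinolysis had 3 that rose and 2 that fell (median -0.0037, the value of Cpb2). These 7 do not all oppose clots, since Serpinf2, which fell, and Cpb2, which did not pass, slow fibrinolysis. Those that rose were Serpinc1, Proc and Plg. The 6 vitamin K-dependent genes had 3 that rose (F10, F9 and Proc) and 1 that fell (Pros1). No test of the difference between the lists was made. Against a threshold of 1.2-fold, 10 genes were called higher (C6, C8a, C8b, C8g, C9, Mbl1, Mbl2, Masp2, F10 and Klkb1) and 2 lower (Hc and Serpinf2), beside 7.97% and 9.58% of all tested genes. Without WT replicate 2, 13 genes were called higher and 5 lower, beside 7.90% and 7.81%.

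As a share of all counts, the 41 genes took 4.92% and 4.90% in the WT-labelled libraries and 4.78% and 4.89% in the KO-labelled libraries. The terminal genes went from 0.158% and 0.159% to 0.235% and 0.227%, and the lectin genes from 0.0443% and 0.0448% to 0.0749% and 0.0687%. C3 with the alternative pathway genes went from 1.51% and 1.49% to 1.28% and 1.34%. The terminal and lectin genes were thus a small part of the total, and 9 of the 41 genes ranked within the 50 most abundant genes, none of them a terminal or lectin gene.

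**Figure D5:**
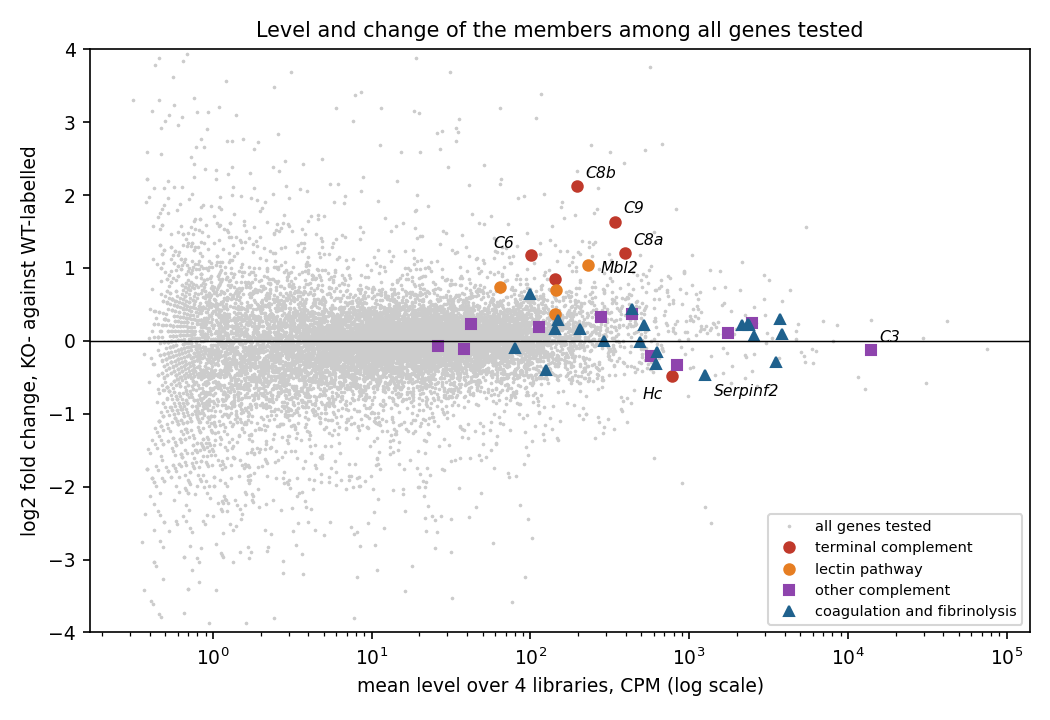
Log2 fold change (vertical axis) against mean level over 4 libraries in CPM (horizontal axis, log scale) for all 14200 genes tested, with the 41 genes coloured by group; 84 genes lie outside the plotted range. C8b, C9, C8a, C6 and Mbl2 stand above 1, and C3 lies at -0.13 at the right.

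The wider pathways were followed with lists of genes outside the 41. The shares to set beside their counts are 16.7% higher and 17.5% lower over all tested genes. Among genes with a mean of at least 20 CPM they are 27.3% and 20.9%. Of 14 other complement genes of liver, 10 were tested, 5 rose and none fell (median log2 fold change 0.17). Of 20 other coagulation genes of liver, 7 rose and 8 fell (median -0.14). Serpina1c, one of several near-identical antitrypsin genes whose reads may be divided uncertainly, rose by 1.03 (SE 0.08). Its copies Serpina1d (0.73) and Serpina1e (0.69) also rose, while Serpina1b (-0.29), the most abundant of them, and Serpina1a (-0.20) fell. F3, tissue factor, rose by 0.79 (SE 0.23). Of 12 coagulation genes known mainly from other cells, 3 rose and 6 fell (median -0.68), with Plat, the tissue plasminogen activator, at -2.35 (SE 0.16), F13a1 at -1.68 (SE 0.16) and F2rl1 at -1.29 (SE 0.33); the summed endothelial and stellate markers were also lower, by the values given above, and their part was not tested. Of 14 tested complement genes of other cells, receptors among them, 3 rose and 2 fell (median 0.0039), with Cr2 at -1.60 (SE 0.47), Itgax at 0.78 (SE 0.11) and C3ar1 at 0.43 (SE 0.11). Of 9 genes for carboxylation, processing and export of clotting factors, 5 rose and 1 fell (median 0.22). Lman1, the cargo receptor for factors V and VIII, rose by 0.54 (SE 0.06), and Mcfd2, its partner in that receptor, fell by 0.48 (SE 0.06), and Tpst1, a tyrosine sulfotransferase, rose by 0.51 (SE 0.09).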

How the data were processed

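Total RNA of the sorted cells was sequenced with an Illumina TruSeq RNA kit, per the labels' protocols. The authors deposited raw counts per gene in 1 table for the 4 EP300 libraries; per the submitters' processing notes, STAR, HTSeq, DESeq2 and mm10 were named, with no role or version, and the sources used here do not give the strand setting. Another 4 columns of the table could be matched to no sample and stayed out, and the diet libraries' tables were not used here. Of 55385 identifiers, 55144 matched a gene symbol, with coordinates and exon lengths from GENCODE M21 (GRCm38) and promoters from RefSeq (GRCm38.p6).

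The counts were tested with edgeR 4.0.16 in R 4.3.3 (quasi-likelihood F test on group alone, TMM scaling, low counts removed by filterByExpr at a minimum of 10 with 2 residual degrees of freedom, Benjamini-Hochberg adjustment over all 14200 tested genes, threshold 0.05). The common biological coefficient of variation was 5.47%. Each SE was obtained from the log2 difference and the F statistic, as their ratio after taking the root of F. Values per library were given for genes past 2-fold and for the leading genes of each role; of other lists, for up to 3 genes with the largest change, some of which are not reported here. The 41 genes and all lists were chosen with earlier results of these data known. The script was tested on simulated data. Replicates differed by more than counting noise (chi-square per degree of freedom 5.50 for KO and 2.60 for WT), so no library was a duplicate. DESeq2 1.42.0, limma 3.58.1 and other settings served as alternatives. A setting without genes that share over 10% of their exon bases was added after seeing the data.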

Additional observations from a re-analysis of the deposited data

How the results depend on the processing

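Over 13 alternatives, 17 of the 41 genes had the same call in every one and 24 changed it in at least 1; no direction reversed among called genes. All genes called numbered 4851 (2366 higher, 2485 lower), against 2940 (1518 and 1422) with DESeq2, 2703 (1416 and 1287) with no filter, 2492 (1132 and 1360) against a 1.2-fold threshold, and 2306 to 5154 (1160 to 2574 higher, 1146 to 2580 lower) with 1 library left out. Scaling by library size alone gave 1846 higher and 3056 lower. Among the 41 genes, 21 higher and 9 lower became 10 and 2 against 1.2-fold, and 13 to 26 and 5 to 9 with 1 library left out. Among the genes of the other pathway lists, 30 higher and 29 lower became 19 higher with DESeq2, 19 and 17 with no filter, 15 and 17 against 1.2-fold, and 16 to 32 and 16 to 34 with 1 library left out. When the 20 most abundant genes, C3 among them, were left out, the listed genes other than C3 held 4.97% (KO-labelled) and 5.00% (WT-labelled) of the remaining counts. C3 was thus absent from both the genes and the total, so these shares do not measure the same thing as those of all 41 genes. Leaving out genes that share over 10% of their exon bases, a setting chosen after seeing the data, gave 16 higher and 9 lower. Except where fewer genes or libraries entered, the cause was not tested.

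With a replicate block, 22 of the 41 genes were higher and 9 lower, and 5190 genes were called in all, 31 higher and 31 lower in the other pathway lists. Deviations of KO and WT libraries of the same number had a correlation of -0.00075, so the numbers were not taken to pair the samples. With 2 libraries per group, smaller changes than those called may have been missed.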

Other observations

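Regulators of liver transcription and acute phase genes were outside the comparisons above. Of 14 transcription factor genes, 4 were higher and 3 lower in the KO-labelled libraries, with a median log2 fold change of 0.09. The 50% called was close to the 48.2% of genes with a mean of at least 20 CPM, and 34.2% of all tested genes were called. Dbp, a PAR bZIP factor of the circadian clock, was at 20.9 and 26.0 CPM in the WT-labelled and at 72.5 and 71.2 CPM in the KO-labelled libraries (log2 fold change 1.62, SE 0.09, adjusted p = 1.34e-09, edgeR quasi-likelihood test). Cebpb, a factor of the acute phase response, was at 119 and 122 CPM against 239.9 and 322 CPM (log2 fold change 1.22, SE 0.10). Nr1h4, the bile acid receptor FXR, rose by 0.52 (SE 0.06). Lower were Foxa3 (-0.50, SE 0.07), Nr5a2 (-0.44, SE 0.07) and Stat3 (-0.39, SE 0.06), changes close in size to that of Nr1h4; these 3 were picked out once their values were known. Hnf4a had a log2 difference of 0.10 (adjusted p = 0.170).

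Of 17 genes of interleukin 6 signalling and the acute phase, 3 rose and 9 fell (median -0.17). That is 70.6% called, beside 48.2% of genes with a mean of at least 20 CPM and 34.2% of all tested genes. Apcs, serum amyloid P, fell from 212 and 219.8 CPM to 81.3 and 87.1 CPM (log2 fold change -1.36, SE 0.06), and Il1rn, the interleukin 1 receptor antagonist, fell by 1.24 (SE 0.10). Orm1, an acute phase glycoprotein, rose by 0.69 (SE 0.06). Fibrinogen, C3 and several other genes of the 41 are also acute phase genes, and among them Fga and Fgg rose while C3 fell.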
